A study of Mus musculus with 2 samples.

Results

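The genes described here are 10 members of the Notch pathway: the receptors Notch1, Notch3 and Notch4, the ligands Jag1 and Dll4, the DNA-binding factor Rbpj, and the target genes Hey1, Hey2, Heyl and Hes1. They were chosen by symbol, and all 10 were found among the 33696 genes of each matrix. Single-cell RNA sequencing had been run on the abdominal aorta of adult male C57BL/6J mice aged 5 months. The Control library came from mice given saline, and the AngII+HS library from mice given angiotensin II at 1500 ng/kg/min by minipump for 28 days with 0.9% NaCl and 0.2% KCl in the drinking water. Each condition is 1 library of aortas pooled from 5 mice per the design text, so no difference between conditions has a replicate check and no test was made.

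Notch receptors are membrane proteins that are cut after a ligand on a neighbouring cell binds them. The freed intracellular part enters the nucleus, joins the DNA-binding protein RBPJ and switches on genes of the Hes and Hey families, which encode transcriptional repressors. In blood vessels Notch1, Notch4 and Dll4 are best known from endothelial cells, where the pathway sets arterial identity and restrains tip cells, the leading cells of a growing sprout. Notch3 is the receptor of smooth muscle cells and pericytes, the contractile cells around arteries and small vessels, and Jag1 is the ligand through which endothelium and muscle signal to them.

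The members lie on 7 chromosomes of the mouse genome (GRCm39). Notch1, Jag1 and Dll4 are on chromosome 2, Notch3 and Notch4 on chromosome 17, and the other members on chromosomes 3 (Hey1), 4 (Heyl), 5 (Rbpj), 10 (Hey2) and 16 (Hes1). The 250 bases before the start of Hey2 and of Dll4 are shown because these are the target and the ligand whose levels differed most between the endothelial subtypes described below. They are RefSeq sequences of GRCm38.p6, Hey2 from chr10:30842784-30843033 on the minus strand and Dll4 from chr2:119325534-119325783 on the plus strand, with capitals marking the core letters of the RBPJ motif, TGGGAA or TTCCCA on the other strand.
Hey2: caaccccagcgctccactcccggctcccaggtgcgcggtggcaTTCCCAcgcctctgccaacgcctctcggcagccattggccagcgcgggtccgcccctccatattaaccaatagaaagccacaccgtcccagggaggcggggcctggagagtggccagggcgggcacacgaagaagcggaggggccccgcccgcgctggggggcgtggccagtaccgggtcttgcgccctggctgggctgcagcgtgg
Dll4: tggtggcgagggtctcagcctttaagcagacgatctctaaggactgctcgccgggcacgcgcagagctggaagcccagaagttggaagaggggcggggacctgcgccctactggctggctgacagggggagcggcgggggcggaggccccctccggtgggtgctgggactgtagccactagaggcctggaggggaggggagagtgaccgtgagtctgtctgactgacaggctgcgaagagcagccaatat
Hey2 held 1 match, 207 bases before its start, and Dll4 none. Of the 7 members in the RefSeq table, 2 held a match (Hey2 and Rbpj), and 24.1% of all 27025 genes in that table did. A match describes the letters and is not a binding site.

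After filtering and removal of likely doublets, 10269 Control cells with a median of 7274 UMIs and 19734 AngII+HS cells with a median of 3065.5 UMIs were retained. Levels are given as CPM, counts scaled to a fixed library total, of the UMIs summed over the cells of a population, with exact Poisson 95% intervals, and differences as log2 ratios of AngII+HS over Control with exact conditional 95% intervals. All intervals cover counting error only. A ratio is called past the fold when it is at least 0.5 in size. Each gene's level that free RNA would give was estimated from markers of other cell types, and a level near it is read as background. The barcode list recorded with each sample has as many entries as the other sample's matrix, and 67 barcodes are in both lists. Each matrix carries in its own name the condition of the sample it is recorded with, while each list carries the name of the other condition. The matrices were therefore used under their labels, and the lists were not joined to them. The submitters' protocol also speaks of 1 Control mouse and 2 treated mice where the design text has pools of 5.

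Cell populations were named from marker genes, with the Notch genes left out of the clustering. Vascular endothelial cells (VECs, 798 Control and 1175 AngII+HS cells) divided into arterial, capillary and venous subtypes. The names came from marker genes, so the levels that follow describe the subtypes and do not test the names. The connexin gene Gja5 was at 549 and 533 CPM in arterial VECs (Control and AngII+HS) and Gpihbp1 at 1016 and 757 CPM in capillary VECs. The venous adhesion gene Selp was at 135 and 455 CPM in venous VECs. The arterial VECs held 3 clusters, led by Ptprj, Frzb and Dkk2, of which the last scored highest on arteriolar markers. Smooth muscle cells (VSMCs) numbered 5007 and 530, and pericytes 43 and 92. A further mural cluster led by Pln, with 135 and 128 cells, carried markers of both and was left unnamed. So was a larger mural cluster led by Igkc, with 306 and 296 cells, and smaller ones led by Gria4, S100a9 and Hbb-bs. None of these is in the VSMC or pericyte values, which therefore do not cover all mural cells. Also left unnamed was a cluster led by Dio2, with 1453 and 1577 cells, which scored highest on fibroblast markers. It is not part of the fibroblasts described below (1158 and 3146 cells). Fewer cells of a subtype within a pooled population and less RNA per cell cannot be told apart in its pooled level.

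The endothelial receptor Notch1 was high in every endothelial population. In Control it was at 386 CPM in arterial, 393 in capillary and 369 in venous VECs, whose intervals overlapped, and at 305 CPM in lymphatic endothelial cells (LECs). VSMCs had 20.4 CPM and fibroblasts 15.6 CPM. Outside the endothelium its higher levels in Control were in neutrophils (265 CPM), Schwann-like neural cells (246 CPM) and macrophages (201 CPM).

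Notch4, the receptor largely restricted to endothelium, followed the vessel type. In Control it was at 93.2 CPM in capillary VECs (interval 71.3 to 120), 39.7 CPM in arterial VECs (32.5 to 48.1) and 5.67 CPM in venous VECs (1.84 to 13.2), and these intervals did not overlap. In LECs 1 UMI was counted, and in VSMCs the level was 0.325 CPM. Of fibroblasts, which should lack it, 0.345% of Control cells had a UMI at a median of 4330 UMIs per cell, against 32.4% of capillary VECs at a median of 3512.

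Notch3, the mural receptor, was at 793 CPM in Control pericytes (696 to 901), 534 CPM in the Pln-led mural cluster (493 to 577) and 57.2 CPM in VSMCs (55.2 to 59.3). In AngII+HS VSMCs were again below the pericytes and the Pln-led cluster, at 45.2 CPM. The Pln-led cluster (1198 CPM, 1112 to 1288) and the pericytes (1081 CPM, 989 to 1179) then overlapped. Of these mural populations, the aortic VSMCs, the cells of the vessel's own media, thus had the least Notch3 in both libraries. The unnamed mural clusters led by Igkc, Gria4, S100a9 and Hbb-bs were not compared. In the VECs Notch3 stayed between 4.19 and 12.4 CPM over the 3 subtypes and both libraries.

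The ligand Dll4 was led by capillary VECs, with 189 CPM in Control (158 to 226). LECs had 59.9 CPM, arterial VECs 56.4 CPM and venous VECs 23.8 CPM, of which LECs and arterial VECs overlapped. No Dll4 UMI was found in 130 Control and 1100 AngII+HS T cells, which allows a level of up to 5.05 and 1.10 CPM. Jag1, the other ligand, had another order: 163 CPM in arterial VECs, 83.9 CPM in venous VECs and 47.3 CPM in capillary VECs. It was also present in mural cells, at 162 CPM in the Pln-led cluster, 123 CPM in pericytes and 42.6 CPM in VSMCs.

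Among the targets, Hey2 separated arterial from other endothelium. It was at 133 CPM in Control arterial VECs against 4.58 CPM in capillary, 3.40 CPM in venous and 0.809 CPM in LECs, where the level expected from free RNA was between 1.36 and 2.46 CPM. Mural cells also carried it, at 98.6 CPM in the Pln-led cluster, 56.7 CPM in pericytes and 56.1 CPM in VSMCs. Heyl was the mural target, at 104, 70.0 and 83.2 CPM in those populations, and at 4.31 CPM in all VECs, beside 3.24 CPM expected from free RNA. Hey1 was at 56.6 CPM in LECs, 32.1 CPM in capillary, 12.5 CPM in arterial and 2.27 CPM in venous VECs, though 1 cluster of the arterial VECs, described below, had 50.8 CPM.

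Hes1, a target that other pathways also regulate, was broad. Its Control levels were 810 CPM in LECs, 648 CPM in capillary VECs, 561 CPM in the Pln-led cluster, 481 CPM in VSMCs and 303 CPM in arterial VECs, and 39.9 CPM in macrophages. Rbpj, the factor through which all Notch receptors act, was instead highest in macrophages (1590 CPM) and dendritic cells (DCs, 817 CPM). Fibroblasts (257 CPM), neutrophils (228 CPM), LECs (200 CPM), T cells (187 CPM) and pericytes (170 CPM) lay between these and the VEC subtypes and VSMCs (64.3 to 127 CPM).

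**Figure D1:**
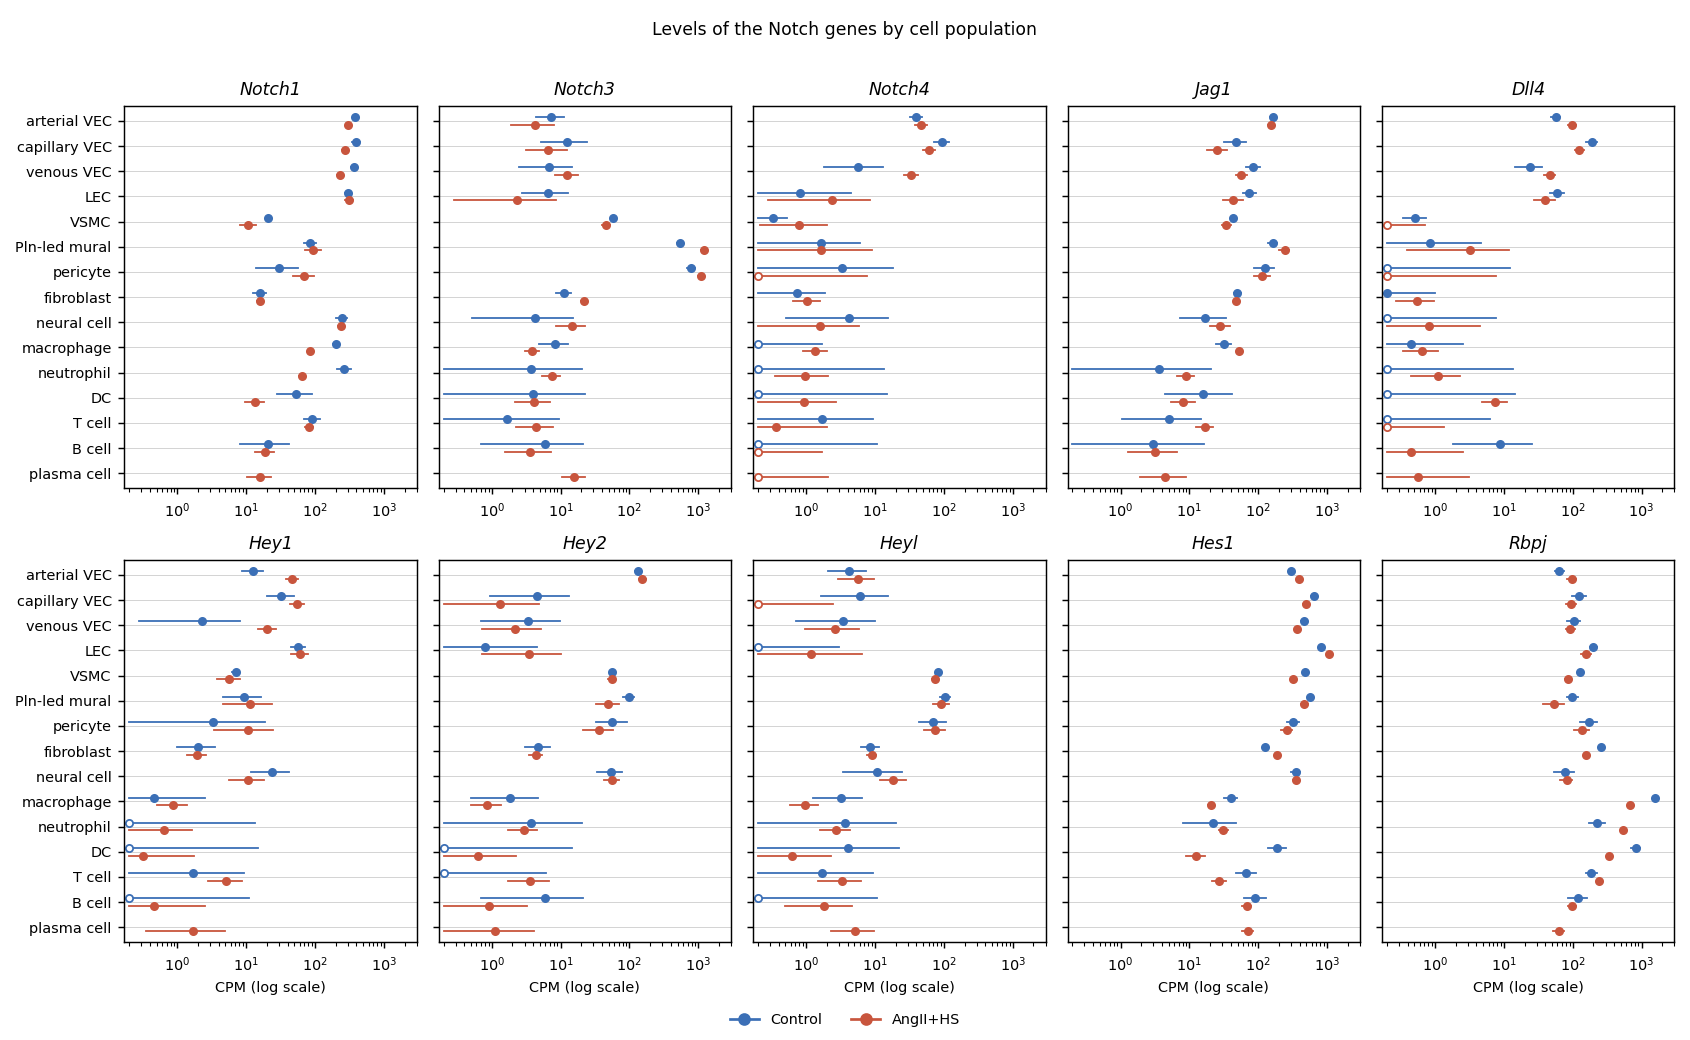
Levels of the 10 members (CPM, log axis) in 15 populations, in Control (blue) and AngII+HS (red), with exact Poisson 95% intervals; open circles at the left edge are populations with 0 UMIs, and intervals are drawn from 0.2 CPM. Dll4 and Notch4 are highest in capillary VECs of Control (189 and 93.2 CPM), while Notch3 peaks in the Pln-led cluster and the pericytes and Rbpj in macrophages.

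The first comparison asks how the members differ between the AngII+HS and Control aortas in VECs as a whole. Hey1 was at 38.7 CPM in AngII+HS against 13.4 CPM in Control, a log2 ratio of 1.53 (1.10 to 1.98). Notch1 was at 266 against 383 CPM (−0.53, −0.63 to −0.42) and Jag1 at 84.1 against 128 CPM (−0.61, −0.79 to −0.43). Hey2 was at 57.3 against 85.4 CPM (−0.58, −0.79 to −0.36). Dll4 was slightly higher, at 85.1 against 70.4 CPM (0.27, 0.06 to 0.49), and Notch4, Hes1 and Rbpj were within 0.21 of 0. In all, 1 of the 10 members was past the fold upward, where 20.9% of the 13014 genes with at least 20 UMIs in VECs were, and 4 were past it downward (Notch1, Jag1, Hey2 and Heyl, the last at 18 UMIs in each library), where 17.4% of genes were. With equal weight per cell Notch1 (−0.31) and Jag1 (−0.41) were lower by less than the fold. The median log2 ratio of the members was 0.03, and 0.05 over all genes.

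The mix of subtypes differed between the libraries, and the members differ between subtypes. Arterial cells were 61.3% of the Control VECs (57.8 to 64.7) and 33.6% of the AngII+HS VECs (30.9 to 36.4). Capillary cells were 17.8% and 37.1%, and venous cells 20.9% and 29.3%. The capillary share includes most of the Inhbb-led cells described below (6 Control and 204 AngII+HS), which may reflect that library and not a cell type. The venous share likewise includes most of the tip-like cells described below (2 and 114). The shares are therefore not read as an expansion of either subtype. When the AngII+HS level of each VEC cluster was weighted by its share of the Control UMIs, Hey2 had a log2 ratio of 0.27 in place of −0.58, and Jag1 −0.12 in place of −0.61. Notch1 (−0.43) and Hey1 (1.66) changed little. With the mix of these clusters fixed, 1 member, Hey1, was past the fold. The Inhbb-led and tip-like cells lie mostly inside the Lpl-led capillary and Csf3-led venous clusters, so the difference in their shares stays in these values.

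**Figure D2:**
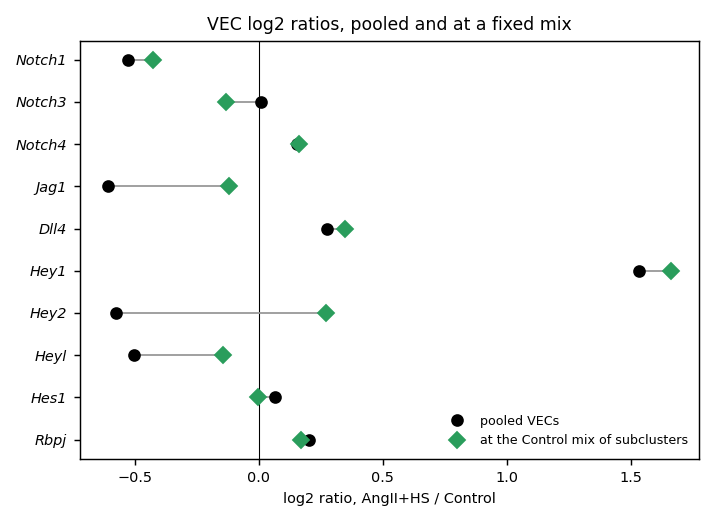
Log2 ratio of AngII+HS over Control for each member in VECs, from the pooled cells (black circles) and with the clusters weighted by their Control shares (green diamonds). Hey2 moves from −0.58 to 0.27 and Jag1 from −0.61 to −0.12, while Hey1 stays above 1.5.

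In arterial VECs the ligand Dll4 and the target Hey1 were higher in AngII+HS, and the ligand Jag1 was close between libraries (154 and 163 CPM). Dll4 was at 97.3 CPM (84.6 to 111) against 56.4 CPM (47.7 to 66.2), a log2 ratio of 0.79 (0.48 to 1.10), and it was seen in 33.2% of cells against 17.4%. After thinning to 1000 UMIs per cell, the shares were 9.85% and 4.72%. Hey1 was at 46.6 against 12.5 CPM (1.90, 1.32 to 2.51), and Rbpj at 96.4 against 64.3 CPM (0.58, 0.28 to 0.88). Hes1 (0.37, 0.22 to 0.51) was higher by less than the fold, Hey2 was at 155 against 133 CPM (0.22, −0.0019 to 0.44), and Notch1 was lower by less than the fold (−0.34, −0.49 to −0.20). Upward, 3 members were past the fold (Dll4, Hey1 and Rbpj) beside 17.7% of 11064 genes. Downward there was 1, Notch3 with 19 and 9 UMIs, beside 14.9% of genes. The members' median was 0.30, and 0.04 over all genes.

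The 3 arterial clusters did not move alike. In the Dkk2-led cluster (75 and 70 cells) Dll4 was at 254 against 102 CPM (1.32, 0.76 to 1.91), Hey1 at 196 against 50.8 CPM (1.95, 1.2 to 2.75) and Hes1 at 509 against 262 CPM (0.96, 0.59 to 1.33). In the same cluster Jag1 was at 466 against 330 CPM (0.50, 0.15 to 0.85), while Hey2 went the other way, at 19.6 CPM from 6 UMIs against 83.8 CPM from 33 UMIs (−2.10, −3.64 to −0.83). This cluster had the highest levels of Dll4, Hey1 and Jag1 of the arterial VECs in both libraries. Its capillary gene Cd36 moved too, from 53.3 to 427 CPM, and its elastic-fibre gene Eln from 1859 to 861 CPM. Markers of tip cells there summed to 215 CPM in AngII+HS against 53.3 CPM in Control, with Esm1 at 14 UMIs against 0. None of these markers was lower, and Apln was absent from both libraries. The part of these shifts in the Notch values was not tested.

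In the Ptprj-led cluster (305 and 196 cells), Dll4 was at 60.5 against 25.3 CPM (1.26, 0.58 to 1.96) and Hey2 at 238 against 160 CPM (0.57, 0.28 to 0.87). Hey1 was seen in 17 UMIs against 4. Notch1 was level there, at 267 and 270 CPM. In the Frzb-led cluster (109 and 129 cells) Notch1 was at 293 against 513 CPM (−0.81, −1.02 to −0.60), and Dll4, at 79.8 and 74.3 CPM, differed by less than counting error. Hey1 was higher there as well, at 22.7 against 8.46 CPM (1.42, 0.26 to 2.72), as was Rbpj, at 125 against 78.1 CPM (0.68, 0.27 to 1.10). The lower Notch1 of the arterial VECs therefore came from 1 of the 3 clusters. Whether the clusters differ in their response was not tested.

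Arterial VECs also carried more RNA of several other cell types in AngII+HS. The 6 fibroblast markers summed to 771 CPM against 212 CPM, with 6 of 6 higher. The 6 neutrophil markers summed to 226 CPM against 9.84 CPM, with 6 of 6 higher, and the 7 macrophage markers to 86.6 against 21.9 CPM, with 7 of 7 higher. None of these markers was at 0 in both libraries. Of the 7 VSMC markers 5 were lower and 2 higher, while their sum was higher, at 1279 against 897 CPM. The 8 pericyte markers summed to 77.8 against 119 CPM, with 4 higher and 3 lower. Fibroblasts, neutrophils and macrophages all carry Rbpj, and their part in the Rbpj ratio of arterial VECs was not tested. With the expected free RNA subtracted, that ratio was 0.39, below the fold.

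**Figure D3:**
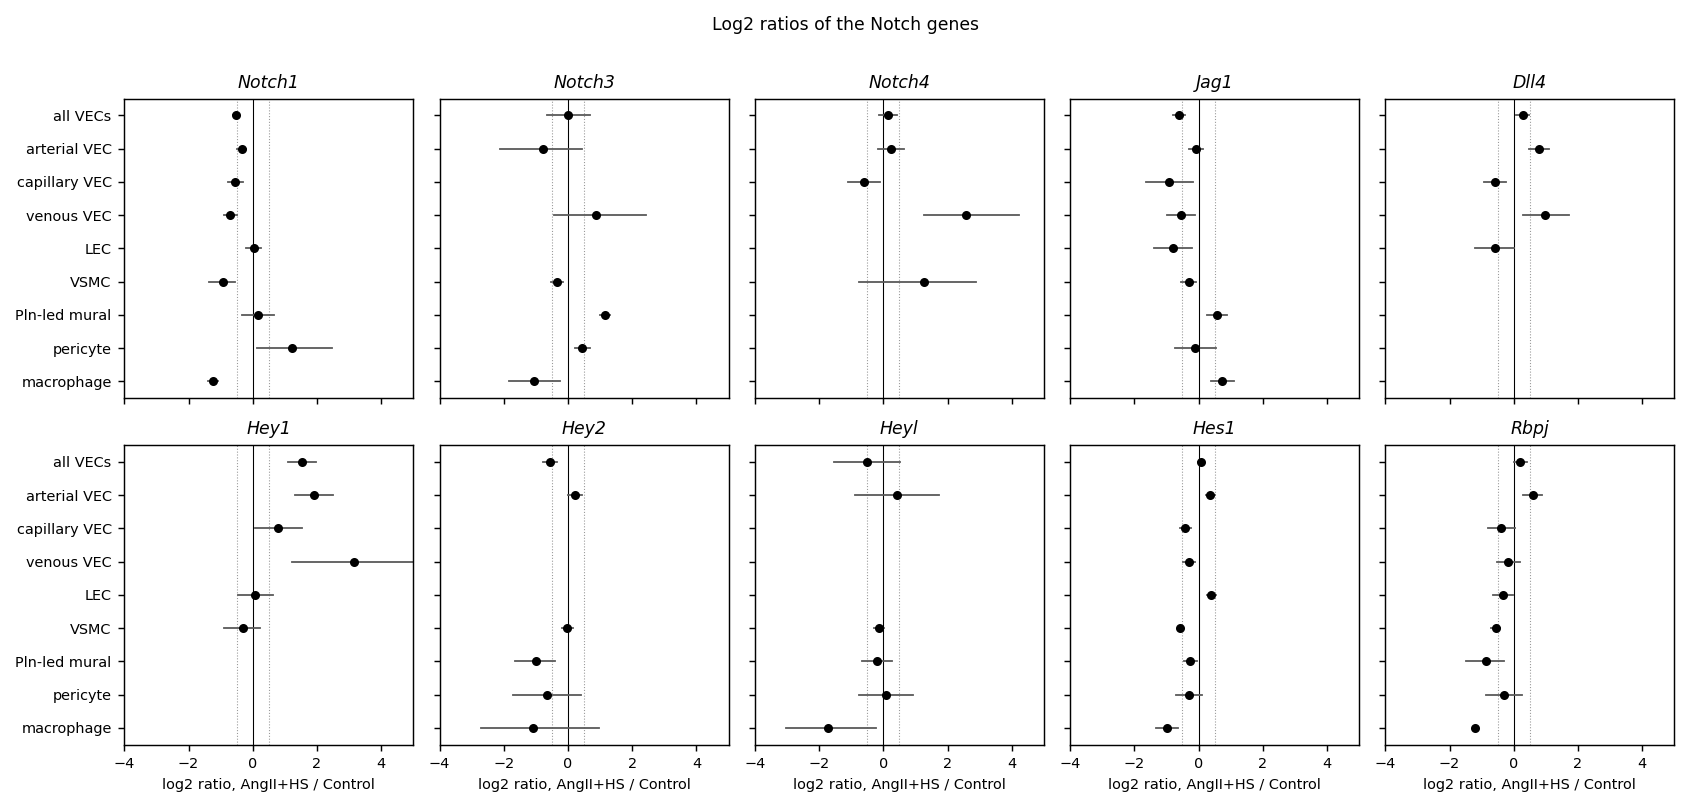
Log2 ratios of AngII+HS over Control (points) with exact conditional 95% intervals (bars) for each member in 9 populations; dotted lines mark ratios of 0.5 in size, and genes with fewer than 20 UMIs in a population, or with 0 in one library, are left out. Dll4 lies above 0 in arterial and venous VECs and below it in capillary VECs, and Notch3 lies furthest above 0 in the Pln-led cluster.

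In capillary VECs both ligands and the receptors Notch1 and Notch4 were lower in AngII+HS. Dll4 was at 126 CPM (108 to 145) in AngII+HS against 189 CPM (158 to 226) in Control, a log2 ratio of −0.59 (−0.93 to −0.25). Notch4 was at 61.1 against 93.2 CPM (−0.61, −1.09 to −0.12), Notch1 at 270 against 393 CPM (−0.54, −0.77 to −0.31) and Jag1 at 25.2 against 47.3 CPM (−0.91, −1.63 to −0.17). Of the targets, Hes1 was at 487 against 648 CPM (−0.41, −0.59 to −0.24) and Hey1 at 55.2 against 32.1 CPM (0.78, 0.08 to 1.55). With cells of at least 1000 UMIs, 500 genes and under 10% mitochondrial UMIs, the log2 ratio of Hes1 was 0.11. These cells were clustered anew, which left 126 Control and 203 AngII+HS capillary VECs in place of 142 and 436. The part of this regrouping in the 0.11 was not tested. Of the 7 members with at least 20 UMIs, 1 was past the fold upward and 4 downward, beside 23.4% and 17.8% of 8610 genes. The endothelial markers of these cells moved in the same direction, with 7 of 8 lower and a sum of 6343 against 7009 CPM. Fibroblast markers summed to 528 against 110 CPM (6 of 6 higher), neutrophil markers to 153 against 12.2 CPM (6 of 6 higher) and macrophage markers to 85.1 against 19.9 CPM (6 of 7 higher). The sums were lower for VSMC markers (598 against 832 CPM) and pericyte markers (173 against 215 CPM). The part of these shifts in the Notch values was not tested.

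Clustered more finely, the capillary VECs divided into cells led by Btnl9 (136 Control and 226 AngII+HS) and cells led by Inhbb and Hilpda (6 and 204), which were almost all from AngII+HS and may reflect that library and not a cell type. In the Btnl9-led cells Dll4 was still lower, at 127 against 195 CPM (−0.61, −1.0 to −0.22). Hes1 was level there, at 664 and 645 CPM. Hey1 was at 31.6 CPM from 25 UMIs against 30.1 CPM from 19 UMIs (0.07, −0.85 to 1.01). The Inhbb-led AngII+HS cells had 292 CPM of Hes1 (253 to 335), 63.0 CPM of Hey1 (45.8 to 84.6) and 116 CPM of Dll4 (92.1 to 144). This split was made after seeing the data. The lower Hes1 of the capillary VECs was thus that of the Inhbb-led cells. The Dll4 of those cells was also below that of the Control capillary VECs. For Hey1 the Btnl9-led interval still held the 0.78 of all capillary VECs, so its higher level cannot be placed in either group.

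Pooled over all their cells, venous VECs had little Notch4, Hey1 or Dll4 in Control and more in AngII+HS. The pool includes most of the tip-like cells described below (2 Control and 114 AngII+HS). Notch4 was at 33.6 CPM from 76 UMIs against 5.67 CPM from 5 UMIs (2.57, 1.28 to 4.23), Hey1 at 20.4 CPM from 46 UMIs against 2.27 CPM from 2 UMIs (3.17, 1.23 to 6.25) and Dll4 at 46.5 against 23.8 CPM (0.96, 0.28 to 1.71). Notch1 was at 227 against 369 CPM (−0.70, −0.90 to −0.49) and Jag1 at 57.1 against 83.9 CPM (−0.56, −0.98 to −0.12). Of 8 members with at least 20 UMIs, 4 were past the fold upward (Notch3, Notch4, Dll4 and Hey1) and 2 downward, beside 33.3% and 18.0% of 9784 genes. The 6 neutrophil markers summed to 237 against 15.9 CPM there (6 of 6 higher), the 7 macrophage markers to 86.3 against 29.5 CPM (7 of 7 higher) and the 7 VSMC markers to 473 against 1094 CPM (7 of 7 lower), and the part of these shifts in the Notch values was not tested.

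Finer clustering set 1 group of these cells apart. A tip-like cluster of 2 Control and 114 AngII+HS cells, led by Akr1b8 and named from markers such as Esm1, Apln and Angpt2, came from the Csf3-led venous cluster, to which 115 of its 116 cells belonged. In its AngII+HS cells Dll4 was at 57.4 CPM (45.2 to 71.8), Notch4 at 47.5 CPM (36.5 to 60.8) and Hey1 at 27.9 CPM (19.7 to 38.5). Hes1 was at 328 CPM (297 to 360), below the Olr1-led venous cells. In the Olr1-led venous cells (95 and 137), Dll4 was at 29.2 CPM in Control and 34.5 CPM in AngII+HS, Notch4 at 5.16 and 12.6 CPM from 3 and 8 UMIs, and Hes1 at 500 and 476 CPM. These pairs differed by less than counting error. Hey1 had 6 UMIs (9.42 CPM) in the AngII+HS cells and 0 in the Control cells, which allows up to 6.34 CPM. These counts are under the minimum of 20 UMIs, and no difference is read from them. Notch1 was lower in the Olr1-led cells as well, at 272 against 406 CPM (−0.58, −0.87 to −0.29). Over the venous cells outside the tip-like cluster, a split made after seeing the data, the log2 ratio of Dll4 was 0.31 (−0.58 to 1.21), of Notch1 −0.40 (−0.65 to −0.15), of Jag1 −0.21 (−0.72 to 0.29) and of Hes1 −0.03. Notch4 and Hey1 had fewer than 20 UMIs there, and no ratio was taken. Of the AngII+HS Dll4 UMIs, 26 were in these cells, beside 105 in all venous VECs of the main clustering. This Dll4 interval still held the 0.96 of all venous VECs, so whether Dll4 differed outside the tip-like cells cannot be told from these counts. Notch1 stayed lower without the tip-like cells, by less than the fold. With 2 Control cells in the tip-like cluster, no ratio can be given inside it.

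**Figure D4:**
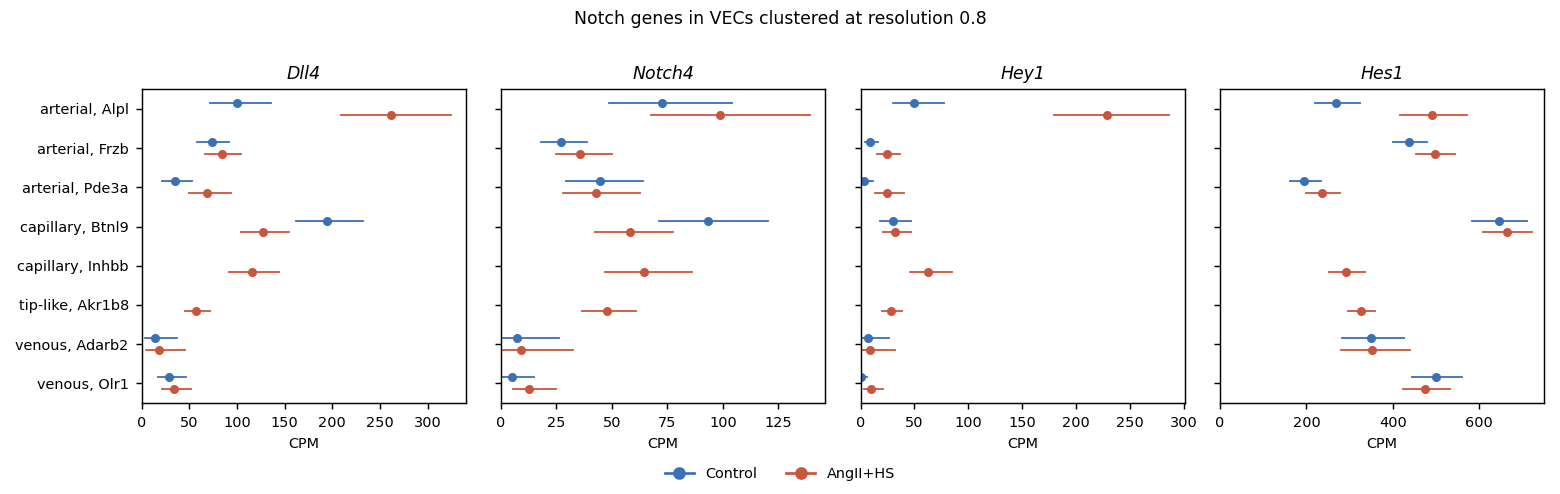
CPM of Dll4, Notch4, Hey1 and Hes1 in the finer VEC clusters, in Control (blue) and AngII+HS (red), with exact Poisson 95% intervals; libraries with fewer than 20 cells in a cluster are left out, and clusters are labelled by subtype and leading gene. In the Alpl-led arterial cells Dll4, Hey1 and Hes1 are higher in AngII+HS with intervals that do not overlap, and the tip-like and Inhbb-led clusters have AngII+HS cells only.

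LECs, which line lymphatic vessels, kept their Notch1 (310 and 305 CPM) and Hey1 (59.7 and 56.6 CPM). Hes1 was at 1067 against 810 CPM (0.40, 0.27 to 0.53), and Jag1 at 43.3 against 74.4 CPM (−0.78, −1.37 to −0.22). Their Dll4 was at 39.8 against 59.9 CPM (−0.59, −1.22 to 0.02). The 7 LEC markers moved as well, to 14030 from 8389 CPM (6 of 7 higher), as did the neutrophil markers (179 against 8.09 CPM, 6 of 6 higher) and the macrophage markers (143 against 34.8 CPM, 7 of 7 higher), and their part was not tested.

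In VSMCs the receptor and targets typical of mural cells were within the fold. Hey2 was at 55.3 and 56.1 CPM (−0.02, −0.20 to 0.16), Heyl at 75.4 and 83.2 CPM (−0.14, −0.30 to 0.01) and Notch3 at 45.2 and 57.2 CPM (−0.34, −0.54 to −0.15). Hes1 was at 324 against 481 CPM (−0.57, −0.64 to −0.50) and Rbpj at 85.5 against 127 CPM (−0.57, −0.71 to −0.43). Notch1 was at 10.7 against 20.4 CPM (−0.93, −1.35 to −0.54). Past the fold were 1 member upward (Notch4, 4 and 17 UMIs) and 4 downward (Notch1, Hes1, Rbpj and Dll4, the last with 27 UMIs in Control and 0 in AngII+HS), beside 13.8% and 27.9% of 15375 genes. The Dll4 and Notch4 levels, all below 0.8 CPM, are too low to compare. The members' median was −0.32, and −0.07 over all genes.

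By cluster, Heyl was past the fold downward in the Actn2-led (−0.61, −0.96 to −0.29) and Sparcl1-led cells (−0.55, −1.10 to −0.05), and Hey2 in the Rad52-led cells (−0.56, −1.24 to 0.05, from 22 UMIs in AngII+HS). Rbpj was lower in each of the 4 VSMC clusters, with log2 ratios from −0.67 to −0.50, but Hes1 was not. It was at 237 against 469 CPM in the Rbp4-led and 249 against 554 CPM in the Sparcl1-led cluster, 345 against 412 CPM in the Actn2-led cluster, and 591 against 504 CPM in the Rad52-led cluster (0.23, 0.08 to 0.37). The VSMC ratios of Notch1 and Rbpj depended on the removal of doublets: with no doublets removed they were −0.30 and −0.09. Those of Hes1 and Rbpj fell short of the fold with cells clustered at resolution 0.4 (−0.39 and −0.47), at resolution 1.2 (−0.34 and −0.44) and with TMM factors, another scaling of the libraries (−0.49 and −0.48). Fibroblast markers summed to 3751 CPM in AngII+HS VSMCs against 1563 CPM, with 5 of 6 higher. The VSMCs' own 7 markers summed to 41388 against 28854 CPM, with 4 higher and 3 lower. Pericyte markers summed to 6267 against 5841 CPM (7 of 8 higher) and neutrophil markers to 67.2 against 5.80 CPM (6 of 6 higher). The part of these shifts in the Notch values was not tested.

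In the Pln-led mural cluster the receptor Notch3 was higher in AngII+HS. It was at 1198 CPM against 534 CPM (1.17, 1.01 to 1.32) and its ligand Jag1 at 241 against 162 CPM (0.57, 0.25 to 0.89). The feedback inhibitor Nrarp, a Notch target outside the members, was at 218 against 128 CPM (0.77, 0.42 to 1.11), and below 1 CPM in VSMCs of both libraries. Hey2 (49.1 against 98.6 CPM, −1.01, −1.64 to −0.42) and Rbpj (54.0 against 99.4 CPM, −0.88, −1.48 to −0.31) were lower, and Heyl and Hes1 were within the fold. The identity of these cells moved as well: 6 of 8 pericyte markers were higher, summing to 3143 against 1932 CPM, and 7 of 7 VSMC markers were lower, summing to 24413 against 31610 CPM. Its part in the Notch3 ratio was not tested.

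Pericytes had 1081 against 793 CPM of Notch3 (0.45, 0.22 to 0.67), Heyl at 73.9 and 70.0 CPM, and Notch1 at 69.7 CPM from 33 UMIs against 30 CPM from 9 UMIs (1.22, 0.12 to 2.46). Of the 7 members with at least 20 UMIs, 1 (Notch1) was past the fold upward and 1 (Hey2) downward, beside 24.9% and 19.9% of 5737 genes. The same shift of markers was present, with 7 of 8 pericyte markers higher (6681 against 3037 CPM) and 7 of 7 VSMC markers lower (15750 against 28649 CPM), and its part was not tested. The Control pericytes carried the VSMC markers at the level of Control VSMCs (28854 CPM), and their pericyte markers summed to less than the 5841 CPM of those VSMCs, of which Rgs5 made up 5409 CPM. Their name rests on markers such as Steap4 (130 CPM, against 1.61 CPM in VSMCs), Vtn (70.0 against 0.04 CPM) and Abcc9 (543 against 215 CPM), and a mixture with VSMCs was not tested. A separate cluster of 39 endothelial cells with pericyte genes, left unnamed, had Notch3 at 272 CPM in Control and 402 CPM in AngII+HS, with the endothelial cadherin gene Cdh5 at 1869 and 1503 CPM.

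Macrophages were the immune population with the most Rbpj, and had less in AngII+HS: 686 against 1590 CPM (−1.21, −1.27 to −1.16). Their Notch1 was at 85.8 against 201 CPM (−1.23, −1.38 to −1.07), and Notch2, the other receptor of these cells, at 211 against 357 CPM (−0.76, −0.87 to −0.65). Jag1 was at 52.4 against 31.3 CPM (0.74, 0.39 to 1.12). Hes1, at 20.3 against 39.9 CPM, stood beside 12.5 and 20 CPM expected from free RNA, and Hey2 and Heyl were at or below the level expected from it in both libraries. Of the 8 members with at least 20 UMIs, 2 were past the fold upward (Notch4 and Jag1), beside 23.0% of 13845 genes. Downward there were 6 (Notch1, Notch3, Hey2, Heyl, Hes1 and Rbpj), beside 32.2% of genes. Notch4, with 27 and 0 UMIs, reached the minimum through AngII+HS alone, and its interval (from −0.40 upward) included 0. Notch3 was at 3.89 against 8.17 CPM. No difference is read from Notch4, nor from Hey2 and Heyl, whose levels are background. Of the genes past the fold 41.7% were higher, and 52.1% with TMM factors, under which Rbpj (−1.05), Notch1 (−1.07) and Jag1 (0.90) kept their direction. The macrophages' own 7 markers summed to 5798 against 7833 CPM (6 of 7 lower) and the 6 fibroblast markers to 475 against 109 CPM (6 of 6 higher), and their part was not tested.

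A cluster led by Arg1 held 40 Control and 2064 AngII+HS macrophages. Without it, a choice made after seeing the data, Jag1 was at 26.2 against 29.8 CPM (−0.18, −0.60 to 0.26), so the higher Jag1 came with this cluster. Rbpj (−1.44, −1.50 to −1.38) and Notch1 (−1.61, −1.79 to −1.42) stayed lower without it.

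Among the other immune cells Rbpj was higher in neutrophils and T cells and lower in DCs. Neutrophils had 531 against 228 CPM (1.22, 0.86 to 1.61), with Notch1 at 64.2 against 265 CPM (−2.05, −2.41 to −1.66) and Notch2 at 368 against 714 CPM (−0.96, −1.17 to −0.74). The 99 Control neutrophils had a median of 2739 UMIs and the 4658 AngII+HS neutrophils 1266. T cells, in which Notch1 directs development, had Notch1 at 81.4 and 90.9 CPM and Rbpj at 243 against 187 CPM (0.38, 0.08 to 0.68). DCs had Rbpj at 342 against 817 CPM (−1.26, −1.47 to −1.03). Their Hes1 was at 188 CPM from 47 UMIs in 18.2% of 77 Control cells, and at 12.5 CPM in AngII+HS, where free RNA would give 15.5 CPM. Plasma cells, found in AngII+HS only (166 cells), had Rbpj at 62.3 CPM and Hes1 at 70.7 CPM.

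Fibroblasts, the main matrix-producing cells of the adventitia, had Hes1 at 187 against 125 CPM (0.58, 0.46 to 0.70), Notch3 at 21.8 against 11.1 CPM (0.98, 0.59 to 1.39) and Rbpj at 157 against 257 CPM (−0.71, −0.80 to −0.62). Hey1, Hey2, Heyl and Jag1 had intervals that included 0 there. The unnamed Dio2-led cluster, which scored highest on fibroblast markers, is in none of these values. Neural cells had Notch1 at 239 and 246 CPM and Hey2 at 55.7 and 53.1 CPM.

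The other 46 genes of the pathway list cover further receptors and ligands, the enzymes that process them, and cofactors of RBPJ. In VECs 3 of the 38 with at least 20 UMIs were past the fold upward and 5 downward, beside 20.9% and 17.4% of all genes, and in arterial VECs 5 and 3 of 37, beside 17.7% and 14.9%. Efnb2, a marker of arterial endothelium that Notch controls, was at 514 against 238 CPM in arterial VECs (1.11, 0.97 to 1.25), and higher in all 3 arterial clusters. In VSMCs it was at 64.7 against 132 CPM (−1.03, −1.19 to −0.87). The ligand Dll1 was at 38.9 against 90.5 CPM in VECs (−1.22, −1.46 to −0.98) and lower in all 3 arterial and both venous clusters, while Jag2, highest in capillary VECs, was level there at 73.8 and 70.3 CPM. Maml3, a coactivator of the RBPJ complex, was higher in VECs (99.4 against 37.1 CPM, 1.42, 1.17 to 1.69), whereas the corepressor gene Spen was lower (60.9 against 97.9 CPM, −0.68, −0.89 to −0.48).

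In VSMCs 7 of 42 were past the fold upward and 13 downward, shares near the 13.8% and 27.9% of all genes. Among the lower genes were the coactivators Maml1, Maml2 (235 against 439 CPM), Maml3 and Ep300, the corepressor gene Spen, the Notch inhibitor Numb, the ubiquitin ligase gene Fbxw7, which turns over the Notch intracellular domain, and the protease gene Adam17. Higher were 3 subunits of gamma-secretase, the enzyme that frees the intracellular domain: Psen2, Ncstn and Psenen, with log2 ratios from 0.61 to 0.65. In pericytes 11 of 28 were past the fold upward and 5 downward, beside 24.9% and 19.9% of all genes, among the latter Maml2 (−0.84, −1.24 to −0.45). In macrophages 4 of 39 were past it upward, led by Dtx4 (1.25, 0.90 to 1.62), Psenen and Psen2, and, beside 23.0% and 32.2% of all genes, 13 downward, led by Maml2 (129 against 326 CPM, −1.34, −1.46 to −1.21) and Fbxw7 (−1.04, −1.21 to −0.86). In capillary VECs Psenen was the gene with at least 200 UMIs past the fold (146 against 82.5 CPM, 0.83, 0.39 to 1.28). In venous VECs, Psen2 (−1.22, −1.61 to −0.82), Maml2 and Spen were lower and Maml3 higher (1.03, 0.63 to 1.45).

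The genes with levels most like each member were found over 40 profiles, the populations with at least 50 cells in either library, by Pearson correlation of log2(CPM + 5). Profiles share libraries and parent populations, so the correlations are descriptions. Notch4 was closest to Sox17 (0.97), an arterial transcription factor gene, Sema3g (0.91) and Dll4 (0.89). Dll4 was closest to Podxl (0.94), Sox7 (0.93) and the tight junction gene Cldn5 (0.93), and Notch3 to Slc6a17 (0.94), the smooth muscle transcript Carmn (0.91) and Rgs4 (0.90). Heyl was closest to the muscle genes Speg (0.96) and Myl9 (0.95), Hey2 to Prdm16 (0.88) and Hes1 to Yap1 (0.95). Notch1 was closest to Arhgap31 (0.89), Jag1 to Bmpr2 (0.85), Hey1 to Mpzl1 (0.83) and Rbpj to Vis1 (0.84).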

How the data were processed

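Single-cell libraries (10x Genomics 3′ v3.1) were deposited as matrices of UMI counts per gene and barcode. The authors made these counts with Cell Ranger, version 8.0.1 per the file headers, and the labels name mm10 as the build. Gene IDs matched GENCODE vM39 (GRCm39) for 33185 of 33696 genes and all 10 members.

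As in the study's methods, barcodes were kept from 500 UMIs and 200 genes upward if mitochondrial UMIs were below 20% (11288 of 11448 for Control, 24560 of 24804 for AngII+HS). The highest Scrublet scores (scanpy 1.11.5) were removed as doublets at 0.8% per 1000 cells, which took 1019 and 4826 cells. The study had used DoubletFinder. The retained cells held 75294050 and 80581691 UMIs. They were integrated by library with Seurat 5.3.0 (2000 variable genes, 30 components, resolution 0.8), giving 23 clusters, and VECs and mural cells were clustered again (20 components, resolution 0.4). The 56 Notch genes were left out of the variable genes. Clusters were named from marker lists when at least 3 markers were detected and no other type's genes led them; the members, lists and this rule were chosen with earlier results of these data known or with the clusters in view.

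UMIs were summed per population and library. Intervals on levels are exact Poisson, on shares Clopper-Pearson and on ratios conditional binomial, all at 95%, and a level of 0 allows 3 counts. Members and genes count as past the fold at a log2 ratio of 0.5 in size with at least 20 UMIs, and medians had 0.5 UMIs added. Other pathway genes are named with at least 200 UMIs past the fold, and Notch2 and Jag2 where measured. The expected free RNA was the profile of all deposited barcodes scaled by markers of other types. On simulated counts in VECs without replicate error, 98.0% of 200 genes changed 2-fold were past the fold in the right direction among 13031 genes, and 9.49% of unchanged genes were past it. In VSMCs the shares were 95.5% and 15.0% (15370 genes). The changed genes were drawn only from genes expected to have more UMIs than the minimum of 20, so recovery near that minimum was not simulated. Alternatives used edgeR 4.0.16 for TMM factors. Promoters of Hey1, Heyl and Hes1 were not analysed here.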

Additional observations from a re-analysis of the deposited data

Results flagged for a closer look

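The listing covers the VEC subtypes, LECs, VSMCs, pericytes and macrophages. Members are listed when their log2 ratios (AngII+HS over Control) were past 0.5 with intervals clear of 0 in opposite directions among these populations. With 1 library per condition the difference between populations was not tested. Dll4 was at 0.79 in arterial and 0.96 in venous VECs but −0.59 in capillary VECs. Notch4 was at 2.57 in venous and −0.61 in capillary VECs. Notch1 was at 1.22 in pericytes, against −0.54 in capillary VECs, −0.70 in venous VECs, −0.93 in VSMCs and −1.23 in macrophages. Its pericyte value rests on 33 AngII+HS and 9 Control UMIs (0.12 to 2.46). The 43 Control pericytes carried VSMC markers at the level of VSMCs, and the part of this in the Notch1 value was not tested. With double the doublets removed, the Control pericytes numbered 172. Jag1 was at 0.74 in macrophages, against −0.91 in capillary VECs, −0.56 in venous VECs and −0.78 in LECs. Rbpj was at 0.58 in arterial VECs, against −0.57 in VSMCs and −1.21 in macrophages. Outside the listed populations, Rbpj was at 1.22 in neutrophils, −0.71 in fibroblasts and −1.26 in DCs. Hes1 was at 0.58 in fibroblasts, against −0.57 in VSMCs, −1.32 in T cells and −3.91 in DCs. Notch3 was at 0.98 in fibroblasts and 1.17 in the Pln-led cluster, against −1.07 in macrophages. Some of these values depend on the processing: Rbpj was at 0.39 in arterial VECs with free RNA subtracted and at −0.09 in VSMCs with no doublets removed. Others depend on which cells are included, in splits made after seeing the data. In venous VECs without the tip-like cells, Dll4 was at 0.31, Notch1 at −0.40 and Jag1 at −0.21 (−0.72 to 0.29). Notch4 had too few UMIs there for a ratio, so its 2.57 cannot be given for those cells. Jag1 in macrophages was at −0.18 without the Arg1-led cluster.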

How the results depend on the processing

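Of 814 log2 ratios recomputed under the alternatives, 756 stayed within their counting interval's width, 54 moved further and 4 that had been past the fold changed sign. These were Notch3 in arterial VECs (0.87) and Heyl in VECs (0.22) with no doublets removed, Notch3 in venous VECs (−0.13) with double the doublets removed, and Heyl in VECs (0.90) with free RNA subtracted. All 4 rest on few UMIs. Ratios within the fold that changed sign are not among the 4, such as Hes1 in capillary VECs with cells of at least 1000 UMIs. Jag1 in macrophages changed sign without the Arg1-led cluster (−0.18), an alternative added after seeing the data. In VECs, members past the fold upward were 2 in place of 1 with no doublets removed, with equal weight per cell and with free RNA subtracted, and downward 1 in place of 4 with equal weight per cell, where Notch1 was at −0.31 and Jag1 at −0.41. At the Control mix they were 2 with double the doublets removed, with the libraries merged without integration and with free RNA subtracted, and 3 with VECs clustered at resolution 0.8. In VSMCs those past the fold downward were 2 in place of 4 with no doublets removed, at resolution 0.4, at resolution 1.2 and with TMM factors. The causes were not tested. TMM factors raised the share of higher genes among macrophage genes past the fold from 41.7% to 52.1%, and lowered it in LECs from 63.4% to 52.5%. Thinning to 1000 UMIs moved 139 of 160 shares of cells beyond their intervals. The merged libraries left too few AngII+HS VSMCs for a value, and the VSMC median with free RNA subtracted has none. No paired analysis was possible because each condition has 1 library. Depth limits members under 20 UMIs, for which no ratio was counted.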
